A study of Mus musculus with 12 samples.

Results

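The 28 genes examined here make up the route from acetyl-CoA to cholesterol and the machinery that sets its pace, in cortex of mice that lack progranulin. They were chosen by gene symbol from a table of 27179 genes, with earlier results of these data known. Shares of the members set beside shares of all genes below are therefore descriptive. The members fall into 4 roles, with 6 mevalonate enzymes and 11 enzymes of squalene and sterol synthesis. The other roles are 5 genes of sterol-regulated transcription (SREBP control) and 6 genes of sterol transport and turnover. All 28 were in the table, and all 28 were among the 15298 genes that passed the low-count filter. Every member had at least 63 counts in every library. The last group also holds Acat2, the cytosolic acetoacetyl-CoA thiolase, which acts at the first step of the mevalonate route.

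Cholesterol does not cross from blood into brain in useful amounts, so brain cells make their own. Oligodendrocytes and astrocytes are its main makers in the adult brain, and neurons dispose of excess by converting it to 24S-hydroxycholesterol, which can leave the brain. When membrane sterol falls, SCAP carries SREBP-2 from the endoplasmic reticulum to the Golgi, where it is cut into an active transcription factor. INSIG proteins hold SCAP back when sterol is plentiful. The genes of the mevalonate and sterol enzymes are classic SREBP-2 targets and often move together.

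RNA came from mouse cortex in 3 groups of 4 libraries each. Wild-type mice (WT) were Grn+/+, with 1 library from 287 days of age (WT replicate 1) and 3 from 375 days (WT replicates 2 to 4). Knockout mice (KO) were Grn-/-, with 1 library from 308 days and 3 from 282 days. Humanized mutant mice (MUT) were Grn-/- and carried the allele labelled GRNmEx5, with libraries from 272, 282, 287 and 309 days. Both null groups therefore lack mouse Grn, and MUT differs from KO in the added human allele, whose own transcript was not analysed here. WT replicate 1 was labelled female and the other WT libraries male, KO held 2 libraries of each label, and MUT held 3 labelled female and 1 labelled male. The labels do not say how the mouse gene was inactivated, which cells express the human allele, or whether any libraries share an animal. The p-values below therefore rest on the scatter of libraries, which may be partly technical.

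Grn ranged from 57.0 to 59.9 CPM (read counts put on a common library size with TMM scaling) in WT, from 10.8 to 14.0 in KO and from 11.5 to 15.3 in MUT, so counts over the gene were reduced and not absent. Library totals ran from 16381221 to 20782195 counts. All 10 cortical excitatory neuron markers passed the filter, and their summed level was 4390 to 6570 CPM in the 12 libraries. All 12 striatal neuron markers passed it too, so passing the filter is no check of the cortex label. Libraries also differed in markers of other tissue. Markers of striatal neurons summed to 889 to 2640 CPM in the 375-day WT libraries and to 419 to 608 CPM in the other 9. Choroid plexus markers summed to 671 to 2000 CPM in 3 libraries (KO replicate 3, MUT replicate 1 and WT replicate 4), and to 9.49 to 55 CPM elsewhere. The sex-linked transcripts Xist and Ddx3y ran opposite to the sex label in 12 of 12 libraries, so that sex as a term of the model splits the libraries the same way under either reading.

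Upstream sequences were read for the members with an entry in the RefSeq promoter table (GRCm38.p6, the assembly that mm10 stands for). Of the 28 members, 23 had at least 1 window, 31 windows in all. The 250 bases before each listed start were searched on both strands for TCACNCCAC, a form of the core of the sterol regulatory element to which SREBPs bind, and for CCAAT, the box bound by NF-Y. No match of one motif overlapped a match of the other in the windows shown. The windows shown are 3, since Hmgcs1, Idi1 and Srebf2 were the members whose WT libraries all lay above all 8 null libraries. Capitals mark either motif, and ATTGG is CCAAT on the other strand. The Hmgcs1 window is chr13:119690101-119690350, plus strand, that of Idi1 is chr13:8885356-8885605, plus strand, and that of Srebf2 is chr15:82147019-82147268, plus strand.
Hmgcs1: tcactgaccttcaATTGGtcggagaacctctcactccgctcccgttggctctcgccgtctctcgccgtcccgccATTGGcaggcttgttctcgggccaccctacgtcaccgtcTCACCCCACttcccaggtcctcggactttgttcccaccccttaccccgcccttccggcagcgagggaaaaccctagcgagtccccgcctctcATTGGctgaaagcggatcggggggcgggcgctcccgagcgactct
Idi1: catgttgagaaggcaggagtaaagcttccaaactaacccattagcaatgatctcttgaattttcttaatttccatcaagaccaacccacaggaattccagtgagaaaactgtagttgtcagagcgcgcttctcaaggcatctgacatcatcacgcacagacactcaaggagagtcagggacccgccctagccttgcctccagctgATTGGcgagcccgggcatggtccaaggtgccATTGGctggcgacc
Srebf2: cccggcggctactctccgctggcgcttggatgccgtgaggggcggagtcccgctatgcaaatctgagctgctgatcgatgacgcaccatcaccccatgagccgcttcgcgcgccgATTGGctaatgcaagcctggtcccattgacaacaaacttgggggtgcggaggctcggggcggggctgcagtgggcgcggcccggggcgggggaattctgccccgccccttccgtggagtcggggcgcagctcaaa

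The Hmgcs1 window held 1 exact sterol regulatory core, starting 137 bases before the start, and 3 CCAAT boxes. It was the only 1 of the 23 members with that core, which was found in 1.22% of the 27025 genes in the table. Only exact matches were counted, so close forms of the element were missed. The Srebf2 window, for example, held tcaccccat, which differs from the searched core in its last base. The window of Idi1 held 2 CCAAT boxes and that of Srebf2 held 1. CCAAT was present in 19 of the 23 members and in 37.5% of all genes in the table. A gene counted if any of its windows held the motif, with 31 windows for the members and 32851 for the 27025 genes. Those shares were not matched for number of windows or for expression in cortex. The windows are not all of equal bearing on the counts, since the RefSeq start of Hmgcs1 lies before the first exon base of the counts table, 119690462, and Pmvk, Dhcr7, Srebf1, Insig2 and Scap had more than 1 listed start. These matches describe letters in a window and say nothing of binding in these cortices.

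Per kilobase of exon, the members spanned a 71.3-fold range of level over the 12 libraries. Cyp46a1, the neuronal cholesterol 24-hydroxylase that starts the removal of brain cholesterol, was highest at 117 CPM per kb. Hmgcs1, the cytosolic synthase that makes HMG-CoA, followed at 98.9, Srebf2, which encodes SREBP-2, at 64.6, and Msmo1, which takes methyl groups off the sterol nucleus at carbon 4, at 48.7. Fdft1, the squalene synthase that commits farnesyl units to sterols, stood at 32.0 CPM per kb. From Nr1h2 at 28.9 to Sc5d at 23.0 CPM per kb, the next 7 genes (Nr1h2, Sqle, Insig1, Scap, Fdps, Pmvk and Sc5d) were each separated from the next by less than the larger SD of the pair over the 12 libraries. Of the 27 steps in the order, 14 were that small. Lower in the order, the same was so among Nsdhl, Mvk, Dhcr7 and Mvd, which lay between 11.1 and 10.7 CPM per kb. The lowest 3 were Hsd17b7 at 5.88, Abca1 at 2.86 and Idi1 at 1.64 CPM per kb.

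**Figure D1:**
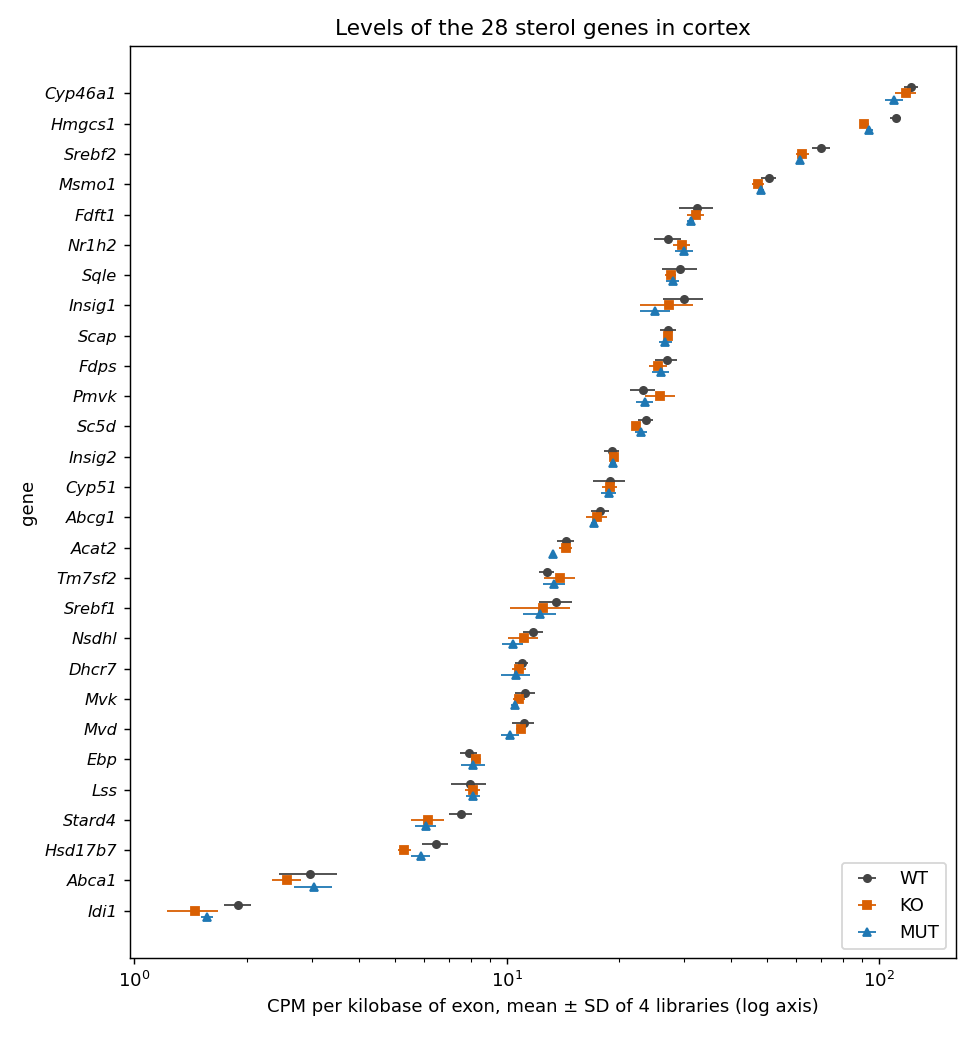
Level of each of the 28 sterol genes in CPM per kilobase of exon (log axis), ordered by the mean of 12 libraries; points are means and bars SDs of the 4 libraries of WT, KO and MUT. Cyp46a1 at 117, Hmgcs1 at 98.9 and Srebf2 at 64.6 CPM per kb lead the order, and Idi1 at 1.64 closes it.

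Spread between libraries also set members apart. The median coefficient of variation over the 28 genes was 6.45% in WT, 4.7% in KO and 4.85% in MUT. Hmgcs1 was among the steadiest, at 3.4%, 2.5% and 2.1%. Insig1 varied by 12.2%, 16.2% and 9.1%, Srebf1 by 10.1%, 18.2% and 10.1%, and Abca1, the ABC transporter that loads cholesterol onto apolipoproteins, by 17.7%, 8.9% and 11.8%. Precision thus differed between members, and Insig1, Srebf1 and Abca1 had the widest intervals in KO beside Idi1.

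Loss of Grn was examined first as KO against WT. A gene passed, or was called, at an adjusted p below 0.05 in edgeR's quasi-likelihood test over all 15298 genes. Of the 28 members, Hmgcs1 passed the test and was lower in KO (1 member, against 0.49% of all genes tested, in either direction). No member rose. A further group of 5 genes, Idi1, Msmo1, Hsd17b7, Srebf2 and Stard4, was lower at an unadjusted p below 0.05 without passing. Together with Hmgcs1 that made 6 of 28 members, where 9.71% of all genes were lower at that level. The log2 fold change was below 0 for 20 members and for 48.7% of all genes, and its median was -0.05 over the members and 0.005 over all genes. DESeq2 called 4 members in KO (Hmgcs1, Hsd17b7, Srebf2 and Stard4), where it called 4.69% of the genes for which it gave an adjusted p, in either direction. In bulk tissue, less RNA of a gene in each cell and fewer cells that carry it cannot be told apart.

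Among the mevalonate enzymes, Hmgcs1 (Entrez 208715; mm10, as are all gene positions here, chr13:119690462-119708077, plus strand) measured 358, 382, 355 and 360 CPM in WT replicates 1 to 4, 307, 306, 290 and 299 CPM in KO, and 302, 314, 307 and 315 CPM in MUT. Every WT library stood above every null library, with 355 CPM the lowest WT and 315 CPM the highest null value. The log2 fold change in KO was -0.27 (SE 0.04, 95% interval -0.36 to -0.18), with an edgeR adjusted p of 0.0247. Hmgcs1 thus fell by 17% of its WT level. It ranked 10 by p among all genes tested. The 287-day WT library, at 358 CPM, lay within the range of the 375-day ones.

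Idi1 (chr13:8885606-8892396, plus strand) encodes the isomerase that makes dimethylallyl diphosphate and was the least abundant member. It measured 5.67, 5.01, 5.09 and 5.97 CPM in WT, 3.31, 3.98, 4.60 and 4.69 CPM in KO and 4.40, 4.71, 4.53 and 4.32 CPM in MUT. The WT and null libraries did not overlap, and KO was the more scattered of the null groups. Its log2 fold change in KO of -0.43 (SE 0.13) was the most negative of the 28 and did not pass (edgeR adjusted p = 0.114). With 63 to 103 counts a library, Idi1 rests on the fewest counts of the large differences.

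The other mevalonate enzymes overlapped between KO and WT. Mevalonate kinase (Mvk) had a log2 fold change of -0.06, mevalonate diphosphate decarboxylase (Mvd) of -0.02 and farnesyl diphosphate synthase (Fdps) of -0.08. Pmvk, which adds the second phosphate, was the member with the highest value, 0.16 (95% interval -0.003 to 0.33, edgeR adjusted p = 0.295). So 5 of the 6 enzymes had values below 0, as did 48.7% of all genes. The 1 that passed stands against 0.49% of all genes, in either direction.

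Of the 11 enzymes from squalene synthase onwards, none passed in KO with edgeR, while 2 were lower and 0 higher at an unadjusted p below 0.05. Over all genes tested, 9.71% were lower and 7.92% higher at that level. DESeq2 called 1 of the 11, Hsd17b7, against 4.69% of its genes in either direction. Hsd17b7 (chr1:169949537-169969205, minus strand), the ketosteroid reductase of the demethylation of lanosterol, measured 26.0, 30.7, 30.8 and 30.3 CPM in WT, 24.3, 22.9, 24.7 and 25.2 CPM in KO and 28, 25.5, 25.7 and 28.4 CPM in MUT. All 4 KO libraries lay below all WT libraries, and WT replicate 1 was much closer to them than the 375-day WT libraries were. Hsd17b7 had a log2 fold change of -0.28 in KO (SE 0.07, edgeR adjusted p = 0.0827).

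Msmo1 (chr8:64718145-64733578, minus strand) measured 97.1, 90.9, 86.7 and 94.5 CPM in WT, 91.0, 84.0, 85.8 and 84.3 CPM in KO and 88.6, 90.0, 88.0 and 85.8 CPM in MUT. The groups overlapped, and its log2 fold change in KO was -0.10 (SE 0.05, edgeR adjusted p = 0.278). The other 9 enzymes lay between -0.09 and 0.13 in KO. Sc5d, the desaturase that sets the double bond at carbon 5, and Sqle, the squalene epoxidase, shared a value of -0.09. Near 0 were Fdft1 at -0.03, the lanosterol synthase Lss at 0.01, the lanosterol demethylase Cyp51 at -0.03 and the last reductase Dhcr7 at -0.03. Nsdhl, the dehydrogenase that works beside Msmo1 and Hsd17b7, was at -0.06. The sterol isomerase Ebp was at 0.06 and the sterol reductase Tm7sf2 at 0.13.

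Genes of SREBP control gave no call in KO with edgeR. At an unadjusted p below 0.05, 1 of 5 was lower and 0 higher, against 9.71% and 7.92% of all genes. DESeq2 called that 1, Srebf2, against 4.69% of its genes in either direction. Srebf2 (chr15:82147269-82204960, plus strand) measured 320, 324, 339 and 297 CPM in WT, 279, 291, 271 and 297 CPM in KO and 278, 284, 282 and 278 CPM in MUT. The lowest WT library, replicate 4, was only just above the highest null library, at 297.4 against 296.7 CPM. Srebf2 had a log2 fold change of -0.17 in KO (SE 0.05, edgeR adjusted p = 0.107).

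Insig1 (chr5:28071412-28078662, plus strand), the retention protein that is itself an SREBP target, measured 65.6, 88.3, 82.0 and 81.8 CPM in WT, 64.1, 64.5, 89.1 and 71.6 CPM in KO and 72.2, 60.2, 62.4 and 71.2 CPM in MUT. KO replicate 3 was the highest library of all 12, and WT replicate 1 fell among the null libraries. Insig1 had a log2 fold change of -0.16 in KO (SE 0.12, edgeR adjusted p = 0.55). Srebf1, which encodes the SREBP-1 proteins with more bearing on fatty acid genes, had the same value of -0.16 with an interval from -0.43 to 0.12. Insig2, the second retention protein, stood at 0.04 (95% interval -0.06 to 0.13) and Scap, the escort, at 0.01 (-0.10 to 0.11).

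In transport and turnover, no member passed in KO with edgeR. At an unadjusted p below 0.05, 1 of 6 was lower and 0 higher, against 9.71% and 7.92% of all genes. DESeq2 called that 1, Stard4, against 4.69% of its genes in either direction. Stard4, a soluble carrier of cholesterol between membranes and an SREBP target, measured 20.2, 23.8, 23.2 and 23.0 CPM in WT, 16.9, 16.7, 20.6 and 19.4 CPM in KO and 19.0, 19.0, 17.6 and 16.7 CPM in MUT. The 375-day WT libraries stood above all 8 null libraries, and WT replicate 1 lay below KO replicate 3. The log2 fold change in KO was -0.31 (SE 0.09, edgeR adjusted p = 0.101). Values for the genes that liver X receptors govern were -0.23 for Abca1 (95% interval -0.50 to 0.04) and -0.04 for the sterol exporter Abcg1. Cyp46a1 was at -0.03 and Acat2 at 0.00.

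Nr1h2 (chr7:44549632-44553923, minus strand), the liver X receptor beta that senses oxysterols, ran the other way. It measured 51.9, 52.7, 59.5 and 48.9 CPM in WT, 55.3, 62.4, 57.2 and 57.0 CPM in KO and 63.6, 56.4, 57.2 and 58.2 CPM in MUT. WT replicate 3 lay among the null libraries and the other WT libraries below all of them. Its log2 fold change in KO was 0.13 (SE 0.07, edgeR adjusted p = 0.353).

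Counted by overlap, 4 members had every KO library below every WT library: Hmgcs1, Idi1, Hsd17b7 and Srebf2. The share over all genes tested was 4.82%. Neither the call for Hmgcs1 nor the near misses were firm across settings. The Hmgcs1 value stayed between -0.29 and -0.25 over 22 other settings, and its adjusted p, from 1.3e-08 to 0.418, was below 0.05 in 8 of them. It was lost without WT replicate 2 (edgeR adjusted p = 0.116), WT replicate 4 (0.0634), KO replicate 1 (0.104), KO replicate 2 (0.161), KO replicate 3 (0.069), MUT replicate 2 (0.0551), MUT replicate 3 (0.0561) or MUT replicate 4 (0.0513), where the log2 fold change ran from -0.28 to -0.25.

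**Figure D2:**
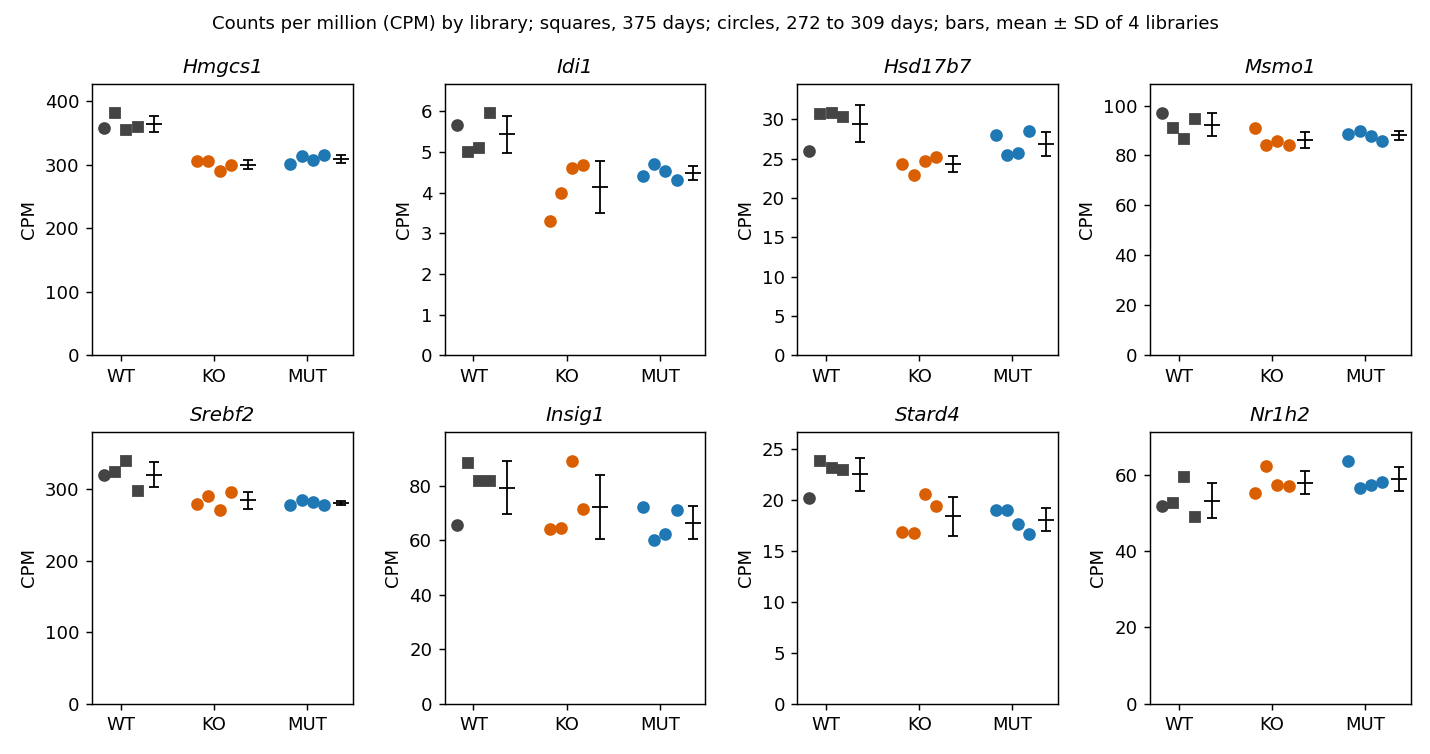
CPM in each library (vertical axes, from 0) for the 8 sterol genes described in full, by group; squares are libraries of 375 days, circles those of 272 to 309 days, and bars are means and SDs of 4 libraries. All WT points of Hmgcs1 (355 to 382 CPM) lie above all null points (290 to 315 CPM), while the lone WT circle of Hsd17b7, Insig1 and Stard4 lies near or among the null points.

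The humanized mutant was compared with the same WT libraries, so its values are not independent of those in KO. No member passed in MUT with edgeR (0 of 28, against 0.0131% of all genes tested, which is 2 genes). DESeq2 called 1, Hmgcs1, against 0.34% of its genes. At an unadjusted p below 0.05, 4 members were lower (Hmgcs1, Idi1, Srebf2 and Stard4) and 0 higher, against 6.02% of all genes lower. Values below 0 were found for 23 members and for 49% of all genes. The median log2 fold change was -0.08 over the members and 0.004 over all genes.

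For Hmgcs1 the log2 fold change in MUT was -0.22 (SE 0.04, edgeR adjusted p = 0.229), a difference of -14.1% from the WT level. It was -0.35 for Idi1 (SE 0.13, adjusted p = 0.409), -0.19 for Srebf2 (SE 0.05, adjusted p = 0.365) and -0.35 for Stard4 (SE 0.09, adjusted p = 0.359). In KO, beside the same WT libraries, those values were -0.27 for Hmgcs1, -0.43 for Idi1, -0.17 for Srebf2 and -0.31 for Stard4. Hsd17b7 stood at -0.13 in MUT and overlapped WT. Insig1 stood at -0.29, Msmo1 at -0.07 and Nr1h2 at 0.15.

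Members whose MUT libraries all lay below all WT libraries numbered 6, where 3.72% of all genes did so. Besides Hmgcs1, Idi1, Srebf2 and Stard4 they were Acat2 and Cyp46a1. Acat2 measured 28.5, 32.0, 29.0 and 30.0 CPM in WT and 27.5, 27.8, 27.9 and 27.5 CPM in MUT, a narrow band just under the lowest WT library. Its log2 fold change was -0.11 (SE 0.06, edgeR adjusted p = 0.507). Cyp46a1 measured 248, 254, 274 and 259 CPM in WT and 215, 236, 236 and 245 CPM in MUT, with a log2 fold change of -0.11 (SE 0.06, edgeR adjusted p = 0.511). Both had values near 0 in KO.

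The remaining members in MUT had log2 fold changes between -0.19 (Srebf1) and 0.07 (Tm7sf2). Below -0.10 were Mvd at -0.12, Nsdhl at -0.12 and Mvk at -0.11. The remaining synthesis enzymes had small values: Fdft1 at -0.09, Sqle at -0.08, Cyp51 and Dhcr7 at -0.07, Fdps and Sc5d at -0.05, Lss at -0.01, Pmvk at 0.02 and Ebp at 0.03. Of control and transport, Abcg1 was at -0.08, Scap at -0.02, Abca1 at -0.01 and Insig2 at 0.04. None of these passed.

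**Figure D3:**
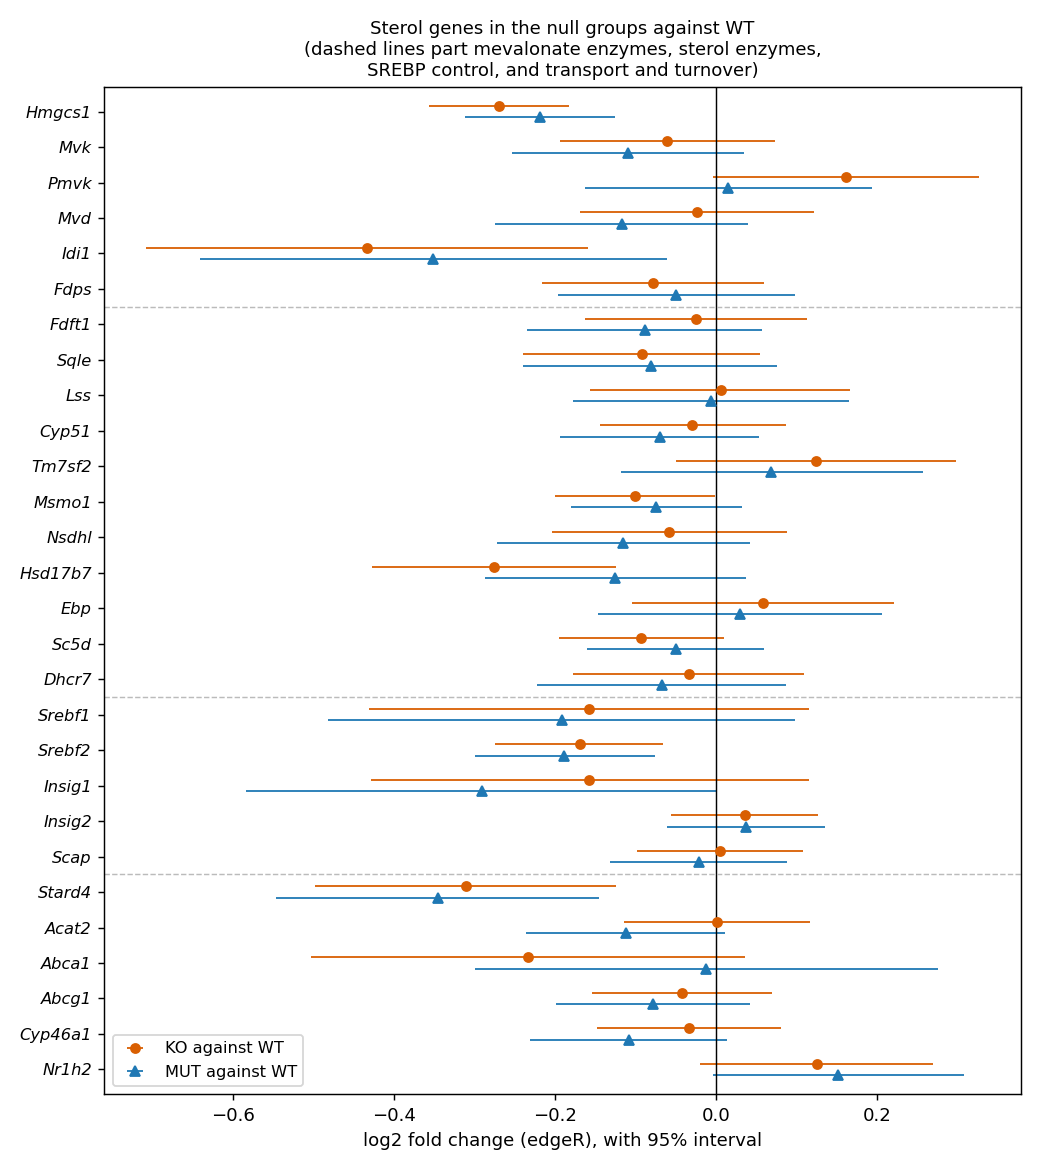
Log2 fold change against WT (horizontal axis) of the 28 sterol genes in KO (circles) and MUT (triangles), with 95% intervals from edgeR; both comparisons use the same 4 WT libraries. Hmgcs1, Idi1, Srebf2 and Stard4 have intervals below 0 in both null groups, and most other intervals span 0.

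The mean of KO and MUT was also set against WT, which gives 8 null libraries to 4. Hmgcs1 again passed, with a log2 fold change of -0.24 (SE 0.04, 95% interval -0.32 to -0.17, edgeR adjusted p = 0.0388), and was the only member to do so, against 0.15% of all genes. At an unadjusted p below 0.05 there were 5 members lower, against 9.31% of genes, and 1 higher, Nr1h2, against 7.24% of genes. The median was -0.07 over the members and 0.004 over all genes. The count below 0 was 23 of 28, against 48.7% of genes. Members with all 8 null libraries below all 4 WT libraries were Hmgcs1, Idi1 and Srebf2, 3 of 28 where 1.67% of all genes did so.

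The closest to the threshold were Stard4, with a log2 fold change of -0.33 (SE 0.08, edgeR adjusted p = 0.0987), and Srebf2, with -0.18 (SE 0.04, adjusted p = 0.101). Idi1 followed at -0.39 (SE 0.11, adjusted p = 0.133), then Hsd17b7 at -0.20 (SE 0.06, adjusted p = 0.156). Msmo1 stood at -0.09 (adjusted p = 0.312), Insig1 at -0.22 (adjusted p = 0.35) and Nr1h2 at 0.14 (SE 0.06, adjusted p = 0.279). DESeq2 called 3 members in this comparison, Hmgcs1, Srebf2 and Stard4, against 3.63% of its genes. The Hmgcs1 call held in 7 of 22 other settings and was lost without any 1 of 9 libraries: WT replicates 2 and 4, all 4 MUT replicates, and KO replicates 1, 2 and 4, with edgeR adjusted p from 0.0556 to 0.217. The log2 fold change of Hmgcs1 ran from -0.26 to -0.22 over all 22.

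MUT was compared with KO to ask what the human allele adds to loss of the mouse gene. No member passed with edgeR (0 of 28, against 0.00654% of genes, which is 1 gene) or with DESeq2 (0 of 28, against 0.0981% of genes). The 1 member at an unadjusted p below 0.05, against 5.67% of all genes, was Hsd17b7, at 0.15 (SE 0.07, edgeR adjusted p = 0.878). All 4 of its MUT libraries lay above all 4 of its KO libraries, as 3.37% of all genes did. Acat2, at 27.5 to 27.9 CPM in MUT, was the 1 member whose MUT libraries all lay below its KO libraries (28.7, 29.3, 31.3 and 30.4 CPM in KO), as for 1.85% of genes. Its log2 fold change was -0.11 (95% interval -0.23 to 0.002).

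For Hmgcs1 the difference of MUT from KO was 0.05 (95% interval -0.04 to 0.14), for Srebf2 -0.02 (-0.12 to 0.09), for Stard4 -0.03 (-0.22 to 0.15) and for Idi1 0.08 (-0.19 to 0.36). The interval of Idi1 is the widest of these 4 and that of Hmgcs1 the narrowest. Over the 28 members 18 were below 0, against 51.8% of all genes, and the median was -0.03 over the members and -0.004 over all genes. Abca1 had the highest value, 0.22 (-0.05 to 0.49), and Pmvk the lowest, -0.15 (-0.32 to 0.02).

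Age, labelled sex and striatal content coincide within WT, since WT replicate 1 was the 1 WT library of 287 days, the 1 labelled female and the lowest in striatal markers. That library, the WT library nearest in age to the null groups, lay above all 8 null libraries in 10 members, as did 11.5% of all genes tested. It lay below all of them in 2 members, against 12.5% of genes, and within their range in 16. The 3 WT libraries of 375 days all lay above all null libraries in 5 members, against 7.88% of genes. Hmgcs1, Idi1 and Srebf2 were in both sets. Hsd17b7 and Stard4, 2 of 28, were above all nulls in the 375-day WT libraries and not in WT replicate 1, as were 6.21% of all genes. Insig1 came near that pattern, with 81.8 to 88.3 CPM in those libraries and a single null library above them.

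The reverse was seen in 7 members, which stood above all nulls in WT replicate 1 while the 375-day WT libraries overlapped the nulls, against 8.91% of all genes. They were Mvk, Fdps, Fdft1, Sqle, Cyp51, Msmo1 and Scap. Fdft1 measured 107 CPM in WT replicate 1, 85.0 to 90.3 CPM in the older WT libraries and 85.9 to 96.8 CPM in the null libraries. Sqle measured 89.4 CPM, then 68.8 to 82.4 and 72.5 to 79.7 CPM. Cyp51 measured 90.9 CPM, then 71.3 to 85.1 and 77.7 to 86.1 CPM. In Fdps, Fdft1 and Cyp51, WT replicate 1 was the only WT library above all nulls. In the other genes of this set, a 375-day WT library stood above all nulls as well. These were WT replicates 2 and 4 for Sqle (81.3 and 82.4 CPM), and WT replicate 3 for Scap (122 CPM). They were also WT replicate 4 for Msmo1 (94.5 CPM) and, by a hair, WT replicate 2 for Mvk (18.758 against 18.752 CPM). Age and labelled sex cannot be told apart in the place of WT replicate 1. Insig2 and Nr1h2 were below all null libraries in WT replicate 1.

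With the 375-day libraries left out, WT is a single library that is assumed to vary as the other groups do. Hmgcs1 then had log2 fold changes of -0.27 in KO (edgeR adjusted p = 0.253) and -0.22 in MUT (adjusted p = 0.907), close to those with all libraries. Srebf2 was at -0.17 and -0.19, and Idi1 at -0.36 and -0.29. The values of Stard4 shrank to -0.06 in KO and -0.12 in MUT, those of Hsd17b7 to -0.06 and 0.07, and those of Insig1 turned to 0.25 and 0.08. Srebf1 also turned, to 0.15 and 0.09. None of these passed.

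With WT replicate 1 left out instead, the WT libraries are the 375-day ones, high in striatal markers. They are also all labelled male. In KO 4 members then passed, against 10.5% of the genes tested in that setting, and in MUT 3 did, against 6.65%. In KO these were Hmgcs1, Hsd17b7, Insig1 and Stard4, with log2 fold changes of -0.27, -0.37, -0.34 and -0.43 (edgeR adjusted p = 0.00586, 0.004, 0.0387 and 0.0064). In MUT they were Hmgcs1, Insig1 and Stard4, at -0.22, -0.51 and -0.49 (edgeR adjusted p = 0.0344, 0.0141 and 0.00721). Over all genes, this setting raised the calls in KO from 75 to 1620 and in MUT from 2 to 1030. With the striatal marker level as a further term, Hmgcs1 was at -0.29 in KO (adjusted p = 0.101), Stard4 at -0.19 and Hsd17b7 at -0.19. Age, labelled sex within WT, striatal content and genotype cannot be told apart for Hsd17b7, Stard4 and Insig1 in this design. The same libraries underlie the values of all other members, Hmgcs1 included, so this limit holds for them too.

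**Figure D4:**
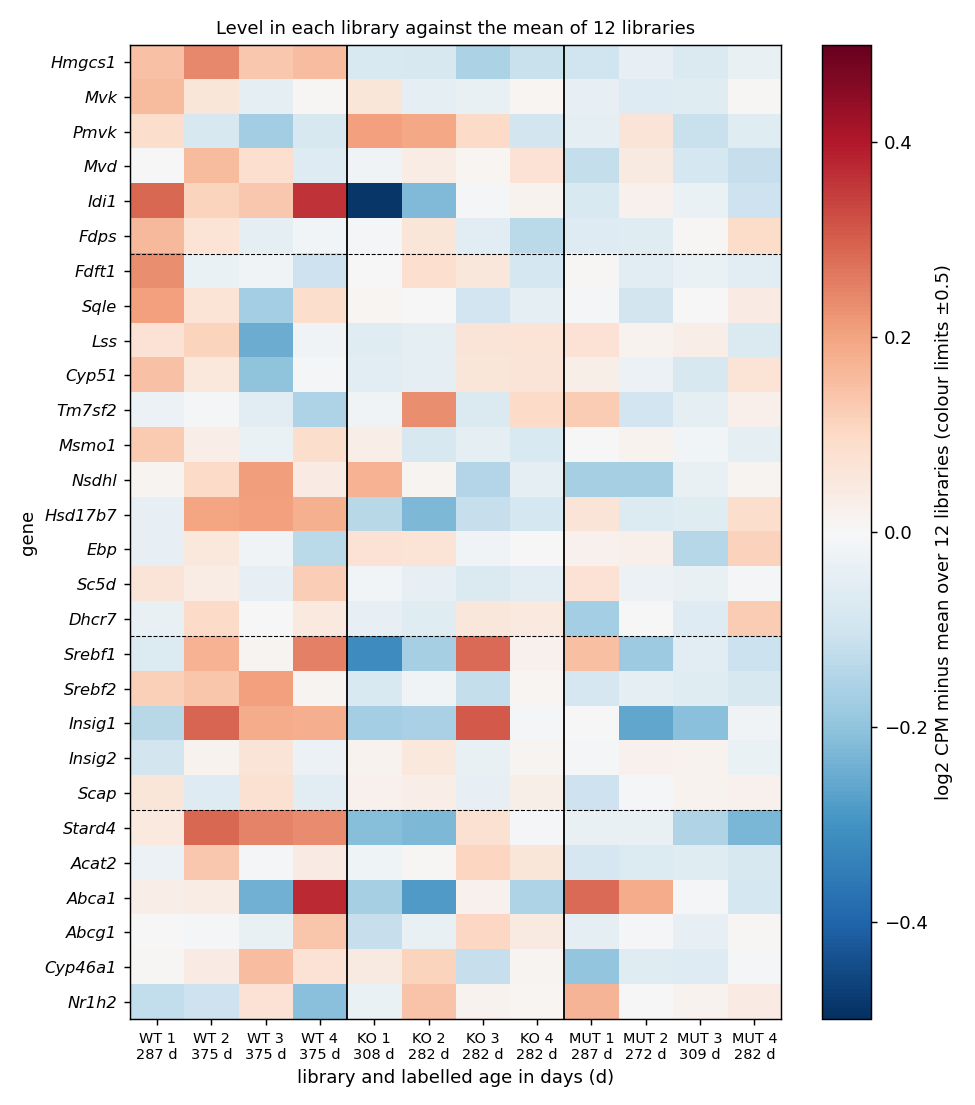
Log2 CPM of each of the 28 sterol genes (rows) in each of 12 libraries (columns, with labelled age), as the difference from the gene's mean over all 12; the colour scale ends at 0.5 in either direction. Hmgcs1 and Idi1 are high in all WT columns, Srebf2 in WT 1 to 3 with WT 4 near the gene's mean, Hsd17b7 and Stard4 in the 375-day WT columns, and Fdft1, Sqle, Cyp51 and Mvk are highest in WT 1.

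The 3 libraries rich in choroid plexus markers fall 1 to each group. In these, 2 members, Srebf1 and Abca1, were each time the highest of their group, as were 6.3% of all genes tested. Srebf2 was each time the lowest, 1 member against 5.6% of genes. Srebf1 measured 66.3, 60.5 and 65.0 CPM in these (KO replicate 3, MUT replicate 1 and WT replicate 4), against 43.9 to 61.5 CPM in the other 9 libraries. Abca1 measured 29.6, 35.5 and 37.7 CPM in the same order, against 23.9 to 33.1 CPM elsewhere. Without those 3 libraries, the log2 fold change of Hmgcs1 was -0.26 in KO (edgeR adjusted p = 0.09), -0.22 in MUT (adjusted p = 0.453) and -0.24 for both null groups (adjusted p = 0.1). The size of the Hmgcs1 difference was thus nearly the same, and its call was lost in both comparisons where it had been made.

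Markers of the cell types that make brain cholesterol differed from one another. All 12 oligodendrocyte markers had log2 fold changes above 0 in KO, with a median of 0.30, and 0 passed with edgeR while 7 were higher at an unadjusted p below 0.05, against 7.92% of all genes. DESeq2 called 3 of them higher (Mbp, Mobp and Cldn11), against its 4.69% of genes in either direction. In MUT 11 of the 12 were above 0, with a median of 0.16. Their summed level was 3160 to 4500 CPM in WT, 4410 to 5280 CPM in KO and 3820 to 4570 CPM in MUT. Astrocyte markers had 7 of 10 values below 0 in KO (median -0.05) and 3 of 10 in MUT (median 0.03), and summed to 1310 to 1350 CPM in WT, 1180 to 1300 CPM in KO and 1270 to 1420 CPM in MUT. Cortical excitatory neuron markers summed to 5330 to 6570 CPM in WT, 4740 to 5430 CPM in KO and 4390 to 5550 CPM in MUT. The part of these shifts in the values of the sterol genes was not tested.

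A list of 34 further genes of sterol synthesis, uptake, storage and control was read beside the members, of which 33 were in the table and tested. None passed in any comparison with edgeR. DESeq2 called 2 of them lower in KO, 1 in MUT and 2 for the mean of the null groups, where its shares over all genes, in either direction, were 4.69%, 0.34% and 3.63%. For both null groups against WT, 6 were lower and 2 higher at an unadjusted p below 0.05, with a median log2 fold change of -0.02, where 9.31% of all genes were lower and 7.24% higher. The 18 fatty acid synthesis genes, many of them SREBP-1 targets, also gave 0 calls, with 6 lower and 0 higher at an unadjusted p below 0.05 and a median of -0.02. DESeq2 called 3 of these lower in KO, named here after their values were seen: Acly (edgeR log2 fold change -0.23, adjusted p = 0.0597), Fasn (-0.16, adjusted p = 0.0938) and Scd1 (-0.39, adjusted p = 0.146). For the mean of the null groups DESeq2 called 3 of them lower, Acly, Fasn and Me1. At an unadjusted p below 0.05 in KO alone, 4 of the 33 were lower and 2 higher, and 5 of the 18 lower and 0 higher, against 9.71% of all genes lower and 7.92% higher. In MUT 5 of the 33 were lower and 1 higher, and 4 of the 18 lower and 0 higher, against 6.02% and 4.84% of all genes.

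Several members share sequence or position with other genes. The exons of Fdft1 overlap those of the cathepsin gene Ctsb on the other strand by 774 bases, and those of Srebf1 overlap Rai1 by 107 bases. Ctsb had 125985 counts over the 12 libraries against 20212 for Fdft1. Lss overlaps 4930483K19Rik by 188 exon bases, but the latter had 0 counts. Tm7sf2 overlaps Vps51 by 9 exon bases on the same strand, with 4372 counts for Tm7sf2 against 15871 for Vps51. The library kit keeps strand, but how the counting used it is not given in the sources used here, and counts of Fdft1 and Srebf1 are uncertain to that extent. Acat2 has a close copy, Acat3, which had 795 counts against 6427. Hmgcs1, Idi1, Hsd17b7, Srebf2 and Stard4 had no exon overlap with another gene of the table.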

How the data were processed

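Libraries were prepared from total cortex RNA with a directional NEBNext kit, per the labels' protocols. A deposited table holds the authors' raw counts per gene for the 12 libraries, with exon positions and lengths. The submitters' processing notes name mm10, R 4.1.2 and DESeq2 1.34.0, while aligner and strand use were not given in the sources used here. The 1049 genes without a symbol stayed in.

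Low counts were removed by filterByExpr within edgeR, with a minimum of 10. TMM scaling and a robust quasi-likelihood fit used edgeR 4.0.16 under R 4.3.3, with group and labelled sex over all 12 libraries. This left 8 residual degrees of freedom. The common biological coefficient of variation was 0.101. P-values were adjusted by Benjamini-Hochberg over 15298 genes, with a threshold of 0.05. No pair of libraries agreed within sampling noise (chi-square over degrees of freedom at least 3.62 in 66 pairs). Totals of 16381221 to 20782195 counts limit precision most for Idi1. CPM per kb divides CPM by exon length.

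Alternatives were DESeq2 1.42.0, RLE scaling, no low-count filter, other covariates, a length trend, library subsets and leaving out each library. Leaving out libraries high in choroid plexus markers was chosen after seeing the data. The members and lists were chosen with earlier results of these data known. Full values are given for members past the threshold and, in each role, the 2 with the smallest p for the mean of both null groups against WT. Values of some single genes outside the members are not reported here.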

Additional observations from a re-analysis of the deposited data

Results flagged for a closer look

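Each member was checked in each group of 4 libraries for a library far from the others, 84 groups in all, by the gap to the nearest library over the range of the group (Dixon's ratio). Chance alone marks about 1 group in 20, and 2 were marked here. Mvd, the mevalonate diphosphate decarboxylase, measured 20.6 CPM in MUT replicate 2 against 18.4 to 18.7 CPM in the other MUT libraries (ratio 0.832). Hsd17b7 measured 26.0 CPM in WT replicate 1, the WT library of 287 days, against 30.3 to 30.8 CPM in the 375-day WT libraries (ratio 0.88). WT replicate 1 also had the lowest striatal marker sum of the WT group (461 CPM) and was the 1 WT library labelled female, so that age, labelled sex and striatal content cannot be told apart within WT. With sex and age as terms, the log2 fold change of Hsd17b7 was -0.03 in KO and 0.08 in MUT.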

How the results depend on the processing

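The number of genes called depended strongly on the setting. In KO it was 75 as reported, 647 with DESeq2, 294 with no sex term, 15 with the length trend removed, 11 with libraries under 310 days, 2 with age as a term, with the replicate number as a block or without the libraries high in choroid plexus markers, and 1 with the striatal level as a term. In MUT it was 2, then 52 with DESeq2 and 6 with no sex term. For MUT against KO it was 1, then 15 with DESeq2, 2 with age as a term and 37 under 310 days. For the mean of the null groups it was 23, then 522 with DESeq2, 550 with no sex term, 14 with the length trend removed, 6 under 310 days, 5 without the libraries high in choroid plexus markers, 4 with the striatal level and 3 with age or the replicate block. With each library left out, it ran from 1 to 1620 in KO, from 2 to 1030 in MUT, from 1 to 18 for MUT against KO and from 2 to 1686 for the mean. The highest values for comparisons with WT came without WT replicate 1.

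Members called in KO numbered 1 as reported, 4 with DESeq2 and 2 with no sex term, where 75, 647 and 294 of all genes were called. They numbered 0 with age, the striatal level or the replicate block as terms, under 310 days, with the length trend removed, and without the libraries high in choroid plexus markers. For the mean of the null groups the count was 1 as reported, 3 with DESeq2, 3 with no sex term and 0 in those same settings. Of all genes, 23 were called as reported, 522 with DESeq2 and 550 with no sex term. In MUT the count of members was 0 as reported and 1 with DESeq2, where 2 and 52 of all genes were called. With each library left out, members called ran from 0 to 4 in KO, from 0 to 3 in MUT and from 0 to 4 for the mean. The highest of these came without WT replicate 1, where 1620, 1030 and 1686 of all genes were called. MUT against KO gave 0 members in all 22 other settings. Fewer libraries or residual degrees of freedom are part of several of these settings, and otherwise the cause was not tested.

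Over the 22 settings the median log2 fold change of the members ran from -0.065 to -0.042 in KO, from -0.095 to -0.063 in MUT, from -0.034 to -0.012 for MUT against KO and from -0.083 to -0.06 for the mean. Members that kept their sign in all of them numbered 16, 14, 15 and 14 of 28, in the same order. The share of all genes that did so was not computed, so these counts do not set the members apart. Of 12 pairs of same-numbered libraries, 1 correlated above 0.1 in deviations from group means (r from -0.377 to 0.289). These correlations cannot tell whether such libraries share a batch, because tissue content also enters them. MUT replicate 1 and KO replicate 3, both rich in choroid plexus markers, had r = 0.535. With the replicate number as a block, Hmgcs1 had a log2 fold change of -0.27 in KO (edgeR adjusted p = 0.0896).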
